A study of Danio rerio with 8 samples.

Results

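The genes described here belong to the Piwi and Tudor branch of the piRNA pathway, read in zebrafish primordial germ cells (PGCs), the embryonic precursors of eggs and sperm. Members were taken by gene symbol from a list of 10 genes. The deposited table held 9 of them among 31200 symbols, namely the Piwi genes piwil1 and piwil2, the Tudor genes tdrd1, tdrd6, tdrd9 and tdrd12, and asz1, pld6 and henmt1. The other listed gene, mael, was not analysed here. All 9 passed the filter on low values, FPKM of at least 1 in 2 libraries, which left 13984 genes for testing. RefSeq's gene table carries 8 of the 9 under the same symbol, and tdrd6 is an older name of tdrd6a.

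piRNAs are small RNAs of the animal germ line that guide Piwi proteins, a clade of the Argonaute family, to transposon transcripts. Long precursor transcripts are cut at the surface of mitochondria and in germ granules, and the mature 3′ ends are methylated. Tudor proteins bind methylated arginines of Piwi proteins and hold the machinery together in the granules. In zebrafish both Piwi proteins are needed to maintain germ cells.

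Embryos of wild type and of the pigu-/- genotype were compared at the shield stage, early in gastrulation, and at the bud stage, at its end. pigu codes for a subunit of the GPI transamidase, which attaches glycolipid anchors to proteins, and the series asks how this complex acts in PGC migration. The labels name Tuebingen (Tu) and India strains and Tg(kop:EGFP-nanos 3’UTR) fish; they do not describe the mutant allele, and their RNA protocol speaks of oocytes. All 4 groups had received GFP-nanos1-3’UTR mRNA as zygotes, and green cells were picked by hand and pooled over embryos of one genotype. Each group had 2 poly-A primed SMART-seq2 libraries, called biological replicates, so p-values measure the spread between such pools. Values are FPKM, fragments per kilobase of transcript scaled to the mapped fragments of a library, and read depth is unknown.

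How many genes a library held touches every result that follows. Symbols with FPKM of at least 1 numbered 5878 in mutant shield replicate 1, 6708 for replicate 1 of mutant bud, 8338 for replicate 1 of wild type shield and 11460 to 13007 in the other 5 libraries. In each of the 4 groups replicate 1 had fewer than replicate 2. Of 11 germ cell markers each library had at least 10 at FPKM of 1 or more. Their summed FPKM ran from 3788 (mutant bud replicate 2) to 36341 (mutant shield replicate 2). Mutant bud replicate 2 also had the highest sums for 3 somatic lists, with 9 of 9 enveloping layer markers (955 FPKM against 14.9 to 522 elsewhere), 8 of 8 of neural ectoderm (981 against 35.9 to 188) and 4 of 4 of endoderm (161 against 0 to 26.1) detected. For the other somatic lists its sum was not the highest. It was 583 for axial and paraxial mesoderm (709 in wild type shield replicate 2) and 31.2 for yolk syncytial layer (88.7 in mutant bud replicate 1). For epidermis it was 121 (195 in wild type bud replicate 1). In pooled cells, fewer germ cells and less RNA per germ cell cannot be told apart. At shield the mutated gene pigu read 0.813 and 10.95 FPKM in mutant PGCs and 11.5 and 15.0 in wild type PGCs, both mutant values being lower. At bud pigu read 0 and 7.32 against 2.78 and 14.6, and the genotypes overlapped.

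Among the 9 members asz1 had the highest level and tdrd12 the lowest. The mean over the 8 libraries was 34.6 FPKM for asz1, above 81.5% of the genes tested, and 3.18 FPKM for tdrd12, above 31.9%. The median gene tested had a mean of 7.41 FPKM. In order of mean log2(FPKM + 1), the members ran asz1, pld6, piwil2, tdrd6, piwil1, tdrd1, henmt1, tdrd9, tdrd12. Neighbours in this order were compared within libraries by an exact two-sided sign-flip permutation test over 8 libraries, which cannot go below p = 0.00781. None of the 8 neighbour pairs passed after Benjamini-Hochberg adjustment, and a single pair at that floor could not have passed alone. The pairs were picked by the same values that were tested, over libraries of 4 groups. These p-values therefore do not test the order. The widest step, from asz1 to pld6, was 0.94 log2 units (SD 0.89, n = 8), with asz1 higher in 7 of 8 libraries (exact p = 0.0312, adjusted p = 0.25). The other steps were between 0.04 and 0.81 log2 units, with adjusted p from 0.75 to 0.875. asz1 was above tdrd12, tdrd9, henmt1, tdrd1 and piwil1 in 8 of 8 libraries.

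**Figure D1:**
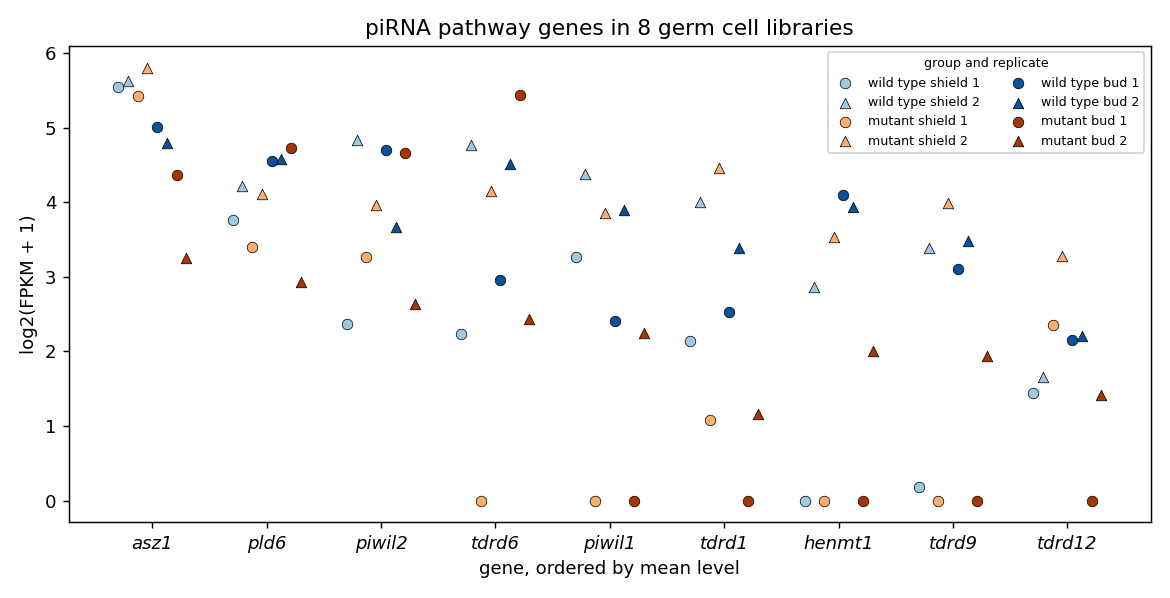
Level of each of the 9 members as log2(FPKM + 1), with 1 point per library; colours give the 4 groups, circles replicate 1 and triangles replicate 2. asz1, pld6 and piwil2 lay above FPKM of 1 in all 8 libraries, while each of the other 6 had a library at or next to 0.

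The summed FPKM of the members was below that of ddx4 (Vasa), a helicase gene of the germ granule, in all 8 libraries. Relative to ddx4 it was 25.1%, 19.4%, 21.9% and 21.4% in the wild type libraries, shield first. It was 61.8% and 13.5% in mutant shield PGCs and 7.99% and 18.3% in mutant bud PGCs. The 4 wild type libraries were close together, and the mutant libraries lay both above and below them. ddx4 itself was lowest in mutant shield replicate 1, at 106 FPKM, where the share was 61.8%. It was highest in mutant bud replicate 1, at 1401 FPKM, where the share was 7.99%, so these shares also reflect the level of ddx4. tdrd7a, a Tudor gene of the germ granule, ranged from 180 to 2498 FPKM.

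The Piwi genes code for the proteins that carry piRNAs. In wild type PGCs piwil1, the gene of Ziwi, stood at 8.65 and 19.7 FPKM at shield and 4.33 and 13.8 at bud. In pigu-/- PGCs piwil1 stood at 0 and 13.5 at shield and 0 and 3.74 at bud. The mutant values were lower at bud without overlap, while at shield replicate 2 lay between the wild type values. piwil1 differed by −1.89 log2 units (mutant minus wild type, SE 1.73, limma adjusted p = 1) at shield and by −2.03 (SE 1.73, limma adjusted p = 0.959) at bud. The shield value of piwil1 was 0.04 once mutant shield replicate 1 was left out.

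piwil2, the gene of Zili, was read in every library. Wild type PGCs had piwil2 at 4.17 and 27.4 FPKM at shield and 25 and 11.7 at bud. Their pigu-/- counterparts had piwil2 at 8.61 and 14.6 at shield and 24.3 and 5.23 at bud. Genotypes and stages overlapped. The genotype difference of piwil2 was 0.02 at shield (SE 1.40, limma adjusted p = 1) and −0.53 (SE 1.40, limma adjusted p = 0.99) at bud. The ratio of piwil2 to piwil1 ran from 0.482 in wild type shield replicate 1 to 5.77 in wild type bud replicate 1, and was between 0.847 and 1.40 in the other 4 libraries where piwil1 was above 0.

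asz1 and pld6 code for proteins of the mitochondrial outer membrane, where piRNA precursors are processed: Asz1 (GASZ) is a scaffold in mouse germ cells, and Pld6 (Zucchini in fly) is the nuclease that forms piRNA 5′ ends. At shield asz1 stood at 45.7 and 48.2 FPKM for wild type and 42.1 and 54.9 for pigu-/- PGCs. At bud asz1 stood at 31.1 and 26.7 for wild type and 19.5 and 8.53 for pigu-/- PGCs. All 4 bud libraries were below all 4 shield libraries, and the share of all genes that lay this way was not computed. The mutant bud libraries were below the wild type bud libraries, as for 28.9% of all genes. Over both genotypes asz1 at bud minus asz1 at shield was −1.25 log2 units (SE 0.75, limma adjusted p = 0.594), a comparison added after the data had been seen. It was −0.68 (SE 1.05, limma adjusted p = 1) within wild type and −1.81 (SE 1.05, limma adjusted p = 0.751) within the mutant. On a scale set to 6 germ cell markers, described with the bud comparison, these values were −0.45 (SE 0.78), −0.26 (SE 1.10) and −0.64 (SE 1.10). The value over both genotypes was −1.80 (SE 0.65) by median of ratios and −1.87 (SE 0.62) by quantiles. It was −0.83 (SE 0.90) without the marker rgs14a and −1.04 (SE 0.86) with 11 markers. The genotype difference of asz1 was 0.03 at shield (SE 1.05, limma adjusted p = 1) and −1.09 (SE 1.05, limma adjusted p = 0.959) at bud.

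On the deposited scale pld6 varied least of the 9 members, with an SD of 0.63 log2 units over the 8 libraries. On the scale of 6 germ cell markers its SD was 0.89, above those of asz1 (0.82) and tdrd1 (0.87). In wild type PGCs pld6 stood at 12.6 and 17.6 FPKM at shield and 22.4 and 23.0 at bud. In pigu-/- PGCs pld6 stood at 9.59 and 16.3 at shield and 25.5 and 6.59 at bud. The wild type bud values lay above the wild type shield values. The mutant bud values were the highest and the lowest of all 8. The genotype difference of pld6 was −0.23 at shield (SE 1.25, limma adjusted p = 1) and −0.74 (SE 1.25, limma adjusted p = 0.978) at bud.

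tdrd1 and tdrd6 code for proteins with several Tudor domains. In zebrafish Tdrd1 binds both Piwi proteins, and Tdrd6 acts in the organisation of germ plasm. Wild type PGCs had tdrd1 at 3.39 and 15.1 FPKM at shield and 4.77 and 9.47 at bud. Their pigu-/- counterparts had tdrd1 at 1.11 and 20.9 at shield and 0 and 1.24 at bud. At shield the mutant values enclosed the wild type values, and at bud both were lower. The bud difference of tdrd1 was −2.38 (SE 1.67, limma adjusted p = 0.959).

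In wild type PGCs tdrd6 stood at 3.72 and 26.2 FPKM at shield and 6.76 and 21.9 at bud. In pigu-/- PGCs tdrd6 stood at 3.24e-07 and 16.8 at shield and 42.5 and 4.39 at bud. Its highest value came from mutant bud replicate 1, where 5 other members were listed at 0, and the genotypes overlapped at both stages. The bud difference of tdrd6 was 0.20 (SE 1.73, limma adjusted p = 1).

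tdrd9 codes for a Tudor protein with a helicase domain that acts in the mouse piRNA pathway, and tdrd12 for one that acts in piRNA production in mouse. Wild type PGCs had tdrd9 at 0.131 and 9.44 FPKM at shield and 7.60 and 10.2 at bud. Their pigu-/- counterparts had tdrd9 at 0 and 15.0 at shield and 0 and 2.85 at bud. Replicate 1 of each shield group was at or next to 0, and both mutant bud values were below the wild type bud values (log2 difference −2.32, SE 1.76, limma adjusted p = 0.959).

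In wild type PGCs tdrd12 stood at 1.71 and 2.17 FPKM at shield and 3.45 and 3.61 at bud. In pigu-/- PGCs tdrd12 stood at 4.10 and 8.72 at shield and 0 and 1.68 at bud. The mutant values were both higher at shield (1.27, SE 1.42, limma adjusted p = 1) and both lower at bud (−1.47, SE 1.42, limma adjusted p = 0.959).

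henmt1 codes for the methyltransferase that modifies piRNA 3′ ends. Wild type PGCs had henmt1 at 0 and 6.27 FPKM at shield and 16.2 and 14.2 at bud. Their pigu-/- counterparts had henmt1 at 0 and 10.6 at shield and 0 and 3.0 at bud. Both wild type bud values were above the other 6, and the share of all genes that lay this way was not computed. The genotype difference of henmt1 was 0.33 at shield (SE 1.71, limma adjusted p = 1) and −3.02 (SE 1.71, limma adjusted p = 0.959) at bud. Bud minus shield was 2.59 (SE 1.71, limma adjusted p = 1) within wild type and −0.77 (SE 1.71, limma adjusted p = 0.946) within the mutant. With 3 libraries at 0, these fitted values depend on the pseudocount of 1.

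At shield 5 of 9 members had a log2 difference above 0 (mutant minus wild type) and 4 below. Of the 13984 genes tested, 4723 were above 0 and 8882 below. The median was 0.02 for the members against −0.30 over all genes tested. limma called 0 of the 9 and 0% of all genes. An unadjusted p under 0.05 was found for 0 of 9 members and 201 of the 13984 genes tested. tdrd12 alone was higher in both mutant libraries than in both wild type libraries, beside 4.26% of all genes. It was also higher in both after scaling by median of ratios (7.2% of all genes) or quantiles (15.6%). On the marker scale described with the bud comparison the share was 10.9%, and without rgs14a 11.4%. No member was lower in both, beside 12.2% of all genes. piwil1 alone was lower in both after scaling by median of ratios (13.5%) or quantiles (12.3%). On the same marker scale the share was 12.9%, without rgs14a 14.3% and with 11 markers 10.5%. A single member is 11.1% of the 9. With scaling to 11 germ cell markers henmt1, and not tdrd12, was higher in both mutant libraries, beside 11.7% of all genes. The median of the members ran from −1.43 without mutant shield replicate 2 to 0.65 without mutant shield replicate 1.

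At bud most members were lower in the mutant, and none passed the test. The log2 difference was below 0 for 8 of 9 members, all but tdrd6, beside 9303 of the 13984 genes tested. The median was −1.47 for the members against −0.51 over all genes tested. Scaled to 6 germ cell markers the difference was below 0 for 5 of 9 members. The members' median was then −0.37, against 0.59 over all genes tested. Scaling to markers shifts all genes of a comparison by the same amount. limma called 0 of the 9 and 0% of all genes, and 0 of 9 members and 677 of the 13984 genes tested had an unadjusted p under 0.05. Both mutant values were below both wild type values for 6 of the 9, which are piwil1, tdrd1, tdrd9, tdrd12, asz1 and henmt1. That is 66.7%, where 28.9% of all genes lay this way. No member was higher in both mutant libraries, beside 8.19% of all genes.

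The germ cell markers differed between the mutant bud libraries. The mean log2(FPKM + 1) of 6 markers (dnd1, nanos3, ca15b, gra, rgs14a and h1m) was 9.45 and 9.90 for wild type at bud and 9.24 and 7.91 for the mutant. In mutant bud replicate 2 all 6 were below both wild type bud values. In mutant bud replicate 1, dnd1, nanos3, ca15b and gra were above both, and rgs14a was listed at 0. Without rgs14a the mean was 10.48 and 10.93 for wild type and 11.08 and 8.68 for the mutant, so replicate 1 lay above the wild type and replicate 2 below.

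Scaling to these markers changed how the members lay at bud. Once libraries were scaled to the mean of the 6, 0 of 9 members lay lower in both mutant libraries, as did 4.2% of all genes. The bud differences of asz1 and henmt1 were then 0.01 (SE 1.10) and −1.91 (SE 1.44). In scalings added after the data had been seen, 0 of 9 lay lower without rgs14a (3.1% of all genes). The median difference was then −0.64, against 0.31 over all genes tested. The 11 germ cell markers add dazl, tdrd7a, ddx4, cxcr4b and celf1, of which tdrd7a and ddx4 are also among the other pathway genes. With all 11, 2 of 9 members lay lower, tdrd1 and henmt1 (5.6% of all genes), with a median of −0.70 against 0.25. The bud difference of asz1 was −0.27 (SE 1.28) and −0.33 (SE 1.21) on these scales. With scaling by median of ratios or by quantiles 6 of 9 members still lay lower, beside 25.2% and 20.5% of all genes. In mutant bud replicate 1, 5 of 9 members (55.6%) were listed at 0, and so were 42.2% of the 6932 genes whose mean FPKM lay in the range of the members. The part of marker level and of detection in the difference was not tested.

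**Figure D2:**
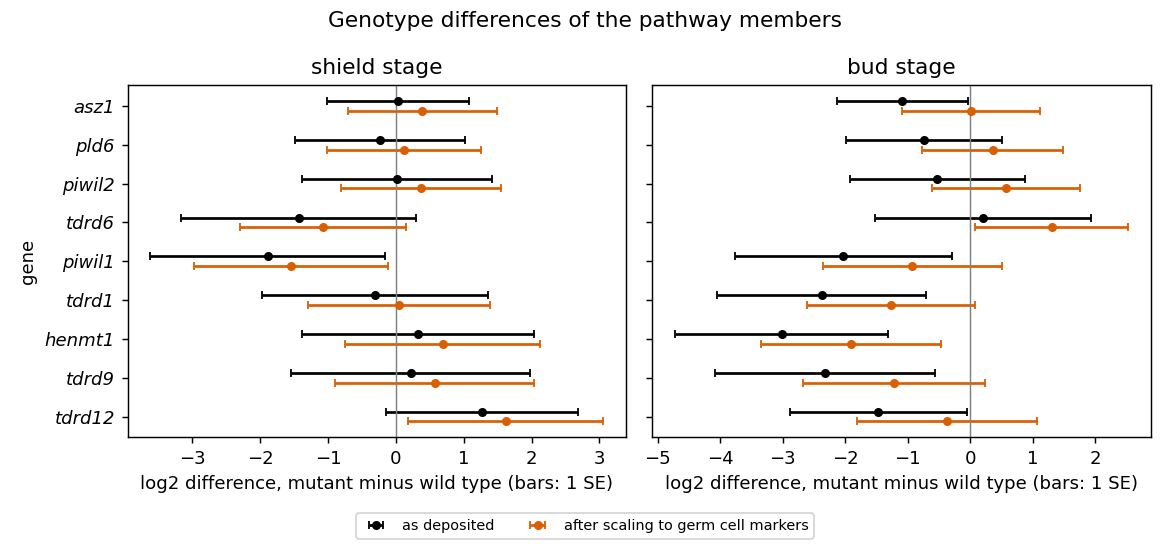
Log2 difference of each member between mutant and wild type at shield (left) and bud (right), with bars of 1 standard error from the limma fit; black is the deposited scale and orange the scale set to the 6 germ cell markers. At bud 8 of the 9 black points lie below 0, and the orange points of asz1, pld6, piwil2 and tdrd6 lie above it, that of asz1 by 0.01.

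Over both stages all 9 members had a log2 difference below 0, beside 9931 of the 13984 genes tested, and the members' median was −0.61. On the scale of the 6 markers 4 members were below 0 and the median of the 9 was 0.12. The members' median was −0.05 without rgs14a and 0.02 with 11 markers. On each marker scale the median over all genes moved by the same amount as that of the members. The differences ran from −1.96 (SE 1.22) for piwil1 to −0.10 (SE 1.01) for tdrd12, and the median over all genes tested was −0.42. limma called 0 members (adjusted p from 0.983 to 0.999) and 0% of all genes. An unadjusted p under 0.05 was found for 0 of 9 members and 597 of the 13984 genes tested.

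From shield to bud in wild type PGCs, 6 of 9 members had a difference above 0, beside 9576 of the 13984 genes tested. The median was 0.58 for the members against 0.51 over all genes. The members' median was −0.08 after quantile normalization and −0.65 without wild type shield replicate 1. tdrd12, henmt1 and pld6 were higher in both bud libraries (3 of 9, beside 29.1% of all genes), and asz1 was lower in both (1 of 9, beside 9.89%), shares near the background. In mutant PGCs 3 members were above 0 and 6 below, where 7881 of the genes tested were above and 5811 below. The median was −0.81 for the members against 0.25 over all genes. The members' median was 0.36 on the scale of the 6 markers, −0.13 without rgs14a and −0.47 with 11 markers. Marker scaling shifts all genes alike, so the median over all genes moved by the same amounts. Without mutant shield replicate 2 the members' median was 0.42. No member was higher in both mutant bud libraries, beside 14.7% of all genes, while tdrd12 and asz1 were lower in both (2 of 9, beside 8.77%) and neither was on any of the 3 marker scales. On these scales tdrd6 was higher in both, beside 32.8%, 24.7% and 21.8% of all genes. With 11 markers tdrd1 was lower in both, beside 3.6%. With median-of-ratios or quantile scaling tdrd1, tdrd12 and asz1 were lower in both (3 of 9, beside 12.9% and 20.5%). limma called 0 of 9 members and 0% of all genes within each genotype. With an unadjusted p under 0.05 there were 0 of 9 members. Of the 13984 genes tested there were 467 in wild type and 928 in the mutant.

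Over both genotypes the stage comparison called 0 of 9 members and 0.0143% of all genes, which is 2 genes. The interaction of genotype and stage called 0 members and 0% of all genes. For it, 0 of 9 members and 199 of the 13984 genes tested had an unadjusted p under 0.05. The interaction values of the members ran from −3.35 (SE 2.42) for henmt1 to 1.63 (SE 2.44) for tdrd6, each with a limma adjusted p of 0.9999.

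The mean level of the members differed widely between replicates at shield, less so at bud. The mean log2(FPKM + 1) of the 9 was 2.33 and 3.97 at shield and 3.5 and 3.83 at bud for wild type PGCs. For mutant PGCs it was 1.73 and 4.13 at shield and 2.13 and 2.22 at bud. The close mutant bud means came from unlike libraries. Replicate 1 had 5 members at 0 and a summed 112 FPKM, and replicate 2 had no member at 0 and a summed 37.3 FPKM. The members minus the 6 markers gave −6.95 log2 units in both wild type shield libraries and −5.95 and −6.07 at bud. In the mutant they gave −6.66 and −6.97 at shield and −7.10 and −5.69 at bud, the lowest and the highest of the 8 libraries. The SD of a member over the 8 libraries had a median of 1.55 log2 units, against 1.28 over all genes tested, and of 1.15 on the marker scale. The SD was smaller on that scale for 6 of 9 members, the others being piwil2, tdrd12 and pld6.

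**Figure D3:**
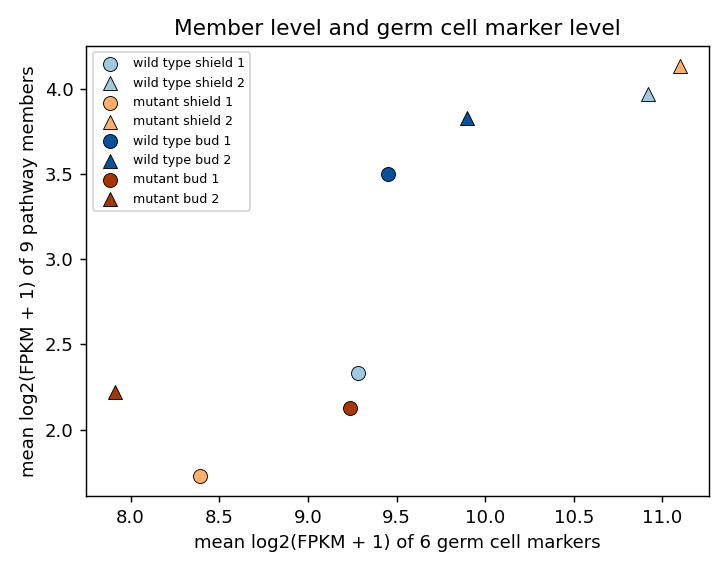
Mean log2(FPKM + 1) of the 9 members against that of 6 germ cell markers, with 1 point per library, coloured by group. Mutant shield replicate 2 and wild type shield replicate 2 are highest on both axes, at 4.13 and 3.97 for the members; mutant bud replicate 2 is lowest for the markers (7.91) and mutant shield replicate 1 for the members (1.73).

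piwil1, tdrd9 and henmt1 were listed at 0 in both replicate 1 libraries of the mutant, and tdrd1 and tdrd12 in the bud one alone. Of the 9 members 3 (33.3%) were at 0 in mutant shield replicate 1, where 49.6% of genes in the same range of mean FPKM were. There tdrd6, at 3.24e-07 FPKM, was not counted as 0. In wild type shield replicate 1, 1 member (11.1%) was at 0, beside 23.7% of genes in that range. No member was at 0 in the other 5 libraries, where the share was between 1.3% and 4.8%. Genes with ribosomal protein symbols were also listed at 0, namely 0 to 3 of 81 per library. They were picked by symbol, and whether every cell uses each of them was not checked. A member listed at 0 is not shown to be absent.

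The other genes of the pathway came from a list of 24, of which 14 were in the table and 13 were tested; tdrd7b was listed at 0 in the 8 libraries. limma called 0 of the 13 in each of the 7 comparisons. At bud 10 of the 13 had a genotype difference below 0, beside 9303 of the 13984 genes tested. The median of the 13 was −0.43 against −0.51 over all genes tested. Lower in both mutant libraries were tdrd5, stk31 and fkbp6, or 3 of 13 beside 28.9% of all genes. For tdrd5 the nearest values, 23.57 in mutant and 23.59 in wild type, were all but tied. At shield 10 of 13 were below 0, beside 8882 of the 13984 genes tested. The median of the 13 was −1.08 against −0.30 over all genes tested. Only exd1 was lower in both mutant libraries, or 1 of 13 beside 12.2% of all genes. fkbp6, the gene of a co-chaperone of the mouse piRNA pathway, had the smallest p of the 13 at bud. It stood at 13.3 and 18.4 FPKM for wild type at bud and was listed at 0 in both mutant bud libraries (log2 difference −4.06, SE 1.70, limma adjusted p = 0.959). snd1, of the Tudor-SN protein found in most cell types, lay the other way, at 80.4 and 80.2 FPKM in the mutant against 10.7 and 16.2 (log2 difference 2.52, SE 1.43, limma adjusted p = 0.959).

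The remaining Tudor genes varied by library. tdrd5 stood at 9.85, 38.7, 23.6 and 27.3 FPKM in the wild type libraries and at 0, 52.1, 23.6 and 5.02 in the mutant ones, shield first. tdrd3 was highest in mutant bud replicate 1 at 114 FPKM, against 4.55 to 62.9 elsewhere. tdrkh, rnf17 and stk31 reached at most 10.7, 17.7 and 26.9 FPKM, and were listed at 0 in a mutant library each, tdrkh also in wild type shield replicate 1 and rnf17 in 1 further mutant library. prmt5, of the enzyme that methylates Piwi arginines, stood at 3.52, 38.0, 37.2 and 49.9 in the wild type libraries and at 0, 34.4, 23.4 and 69.9 in the mutant ones. None of these genes separated the genotypes at both stages.

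The Argonaute genes form the sister clade that acts with microRNAs in most tissues. ago2 ranged from 0 to 47.5 FPKM and ago4 from 0 to 31.0, while ago1, ago3a and ago3b reached at most 8.48, 5.84 and 16.3. All 5 were listed at 0 in mutant shield replicate 1, and all but ago2 in mutant bud replicate 1. At bud ago3b and ago4 were lower in both mutant libraries, or 2 of 5 beside 28.9% of all genes, and limma called 0 of 5 in each comparison.

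**Figure D4:**
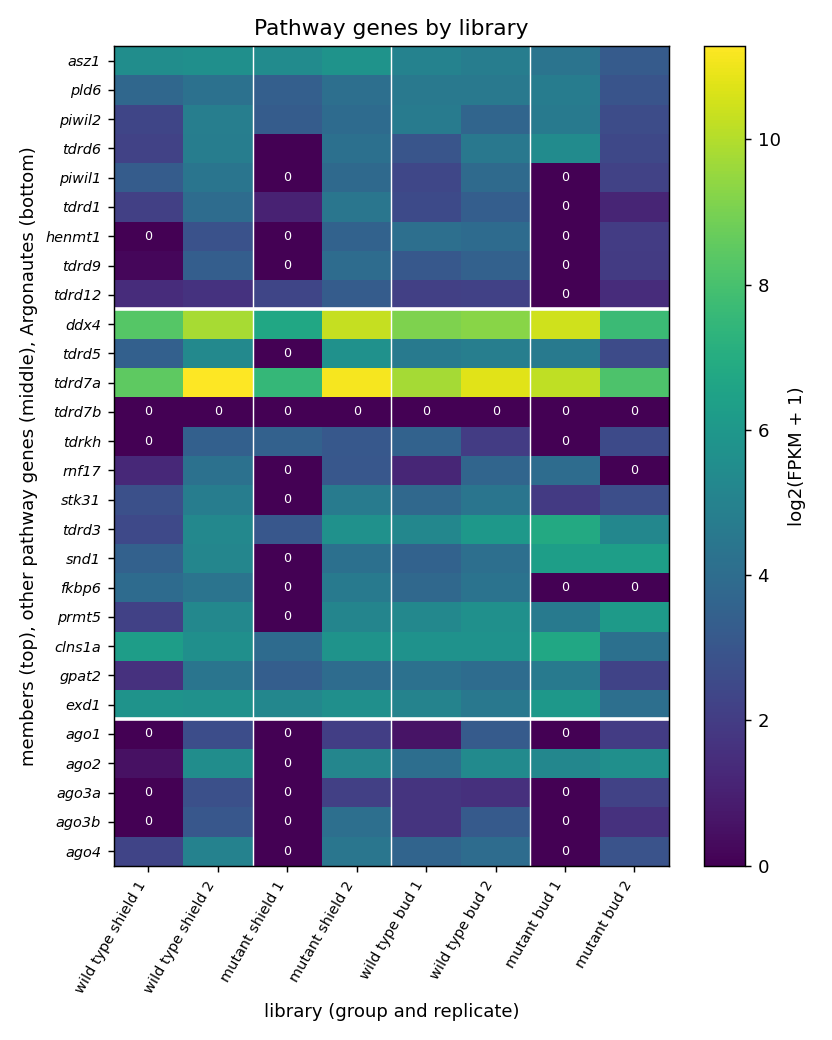
log2(FPKM + 1) of the 9 members (top), 14 other pathway genes (middle) and 5 Argonaute genes (bottom) in the 8 libraries; a printed 0 marks a gene listed at 0. ddx4 and tdrd7a have the highest levels, and many of the zeros fall in the replicate 1 libraries of the mutant.

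Members resembled each other to different degrees over the 8 libraries. All members were read in the same libraries, so differences between libraries in depth or germ cell content could move them together. The values below are therefore descriptions without a test. Pearson's r of log2 values was above 0 for 32 of 36 pairs of members and at least 0.7 for 8 of them. It was highest for tdrd9 with henmt1 (0.96), piwil1 with tdrd1 (0.89) and tdrd1 with tdrd9 (0.85), and lowest for tdrd6 with tdrd12 (−0.30). Between piwil1 and piwil2 it was 0.02. Against the mean of the other members, r was 0.87 for tdrd1 and 0.85 for tdrd9, and between 0.37 and 0.48 for asz1, tdrd12, tdrd6, piwil2 and pld6.

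Of 7223 named genes outside the list with a mean of at least 5 FPKM, those most like the mean profile of the members over the 8 libraries were parp12a, hmbox1a, b3gnt2l, lnx2b and far1. Their Pearson r was 0.978, 0.978, 0.971, 0.967 and 0.966, and their Spearman rho 0.888, 0.878, 0.913, 0.952 and 0.854. Without the mutant shield libraries, which lay farthest from the median of the profile, r was between 0.947 and 0.979. They were picked as the highest, so no p is given, and 249 of all tested genes had an r over 0.9. parp12a, hmbox1a, b3gnt2l and far1 were each listed at 0 in the 3 libraries with the fewest genes. lnx2b was read in all 8, from 9.27 FPKM in mutant shield replicate 1 to 87.4 in mutant shield replicate 2.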

How the data were processed

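RNA-seq was made from picked PGCs in 8 libraries, 2 in each of 4 groups. The authors deposited FPKM, 1 column per library; Trim Galore, STAR 2.5.3a, Cufflinks 2.2.1 and danRer11 are listed per the submitters' processing notes. The annotation, strandedness and handling of multi-mapped reads are not given in the sources used here. Of 31934 entries, 2 with missing values were left out, and where entries shared a symbol (545 symbols) the one with the highest mean was kept. Genes that passed the filter were tested as log2(FPKM + 1), which understates changes of low genes, by limma-trend 3.58.1 in R 4.3.3. One fit of the 4 group means served all comparisons (4 residual degrees of freedom, 15.4 after moderation), two-sided, with Benjamini-Hochberg adjustment over 13984 genes and a threshold of 0.05. Whether the fit suits libraries with many values at 0 was not tested. Genes named beside the members are ddx4, the Tudor genes, up to 4 pathway genes with the smallest p in a comparison, the Argonautes and the 5 genes most like the members' profile. The members and lists were chosen with earlier results of these data known. The alternatives covered pseudocount, filter, scaling, model and left-out libraries. The stage comparison over both genotypes was chosen after seeing the data. So were the omission of replicate 1 of both mutant groups and marker scaling without rgs14a or with 11 markers. Figures used Python 3.11.15 with matplotlib 3.10.9.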

Additional observations from a re-analysis of the deposited data

Results flagged for a closer look

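tdrd12 lay in opposite directions at the 2 stages. Both mutant libraries were higher at shield (4.10 and 8.72 FPKM against 1.71 and 2.17) and both were lower at bud (0 and 1.68 against 3.45 and 3.61). The gene was picked from the members by this pattern, and the share of all genes with it was not computed. With scaling to 11 germ cell markers its shield values overlapped between genotypes. The interaction of genotype and stage was −2.73 log2 units (SE 2.01, limma adjusted p = 0.9999), so the test of the difference did not pass. The bud difference of tdrd12 was −1.47 as deposited, −0.39 after quantile normalization and −0.37 on the scale of 6 germ cell markers, where its mutant bud values were no longer both lower. In mutant bud replicate 1, where tdrd12 was listed at 0, 42.2% of genes in the members' range of FPKM were at 0, and the part of this in the result was not tested.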

How the results depend on the processing

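None of 1478 member values under 24 alternatives passed the threshold (smallest limma adjusted p = 0.177, tdrd6 from shield to bud in the mutant on the scale of 6 germ markers, 3.03, SE 1.22), and 7 had the opposite sign to a reported value that exceeded its standard error. These were asz1 at bud (0.01 on that scale), piwil1 at shield (0.04 without mutant shield replicate 1, alone or with either mutant bud library; −3.82 to 0.04 over single omissions), henmt1 over both stages (0.04 without replicate 1 of both mutant groups) and tdrd6 from shield to bud in the mutant (−1.72 without the same libraries; −0.22 to 3.94 over single omissions). The members' median at bud was −3.11 with a pseudocount of 0.1. Leaving out replicate 1 of mutant shield together with replicate 2 of mutant bud gave medians of −3.28 for the mutant stage comparison and −3.19 for the interaction; over single omissions the former ran from −2.53 (without mutant shield replicate 1) to 0.42 (without mutant shield replicate 2). Calls over all genes for stage in the mutant, 0 as reported, were 3 with a filter at FPKM of 5, 8 with median-of-ratios scaling, 7 with quantile normalization and 0 to 146 over single omissions, the highest without mutant shield replicate 2. For stage over both genotypes, 2 as reported, they were 8, 17 and 0 to 63 for the last 3 of these, the highest again without mutant shield replicate 2, and 0 with a pseudocount of 0.1, no filter, each of the 3 germ marker scalings, no trend or either pair of mutant libraries left out. For genotype over both stages there was 1 call with the filter at 5 and 1 with library weights. The cause was not tested. The numbers were not taken as pairs: correlations of same-numbered deviations ran from −0.01 to 0.33, with 3 of 6 over 0.1, although replicate 1 held fewer genes in every group. With a replicate block the calls were 1 for genotype over both stages, 5 for stage in the mutant, 9 for stage over both genotypes and 1 for the interaction, with 0 members among them. The scalings moved the median of all genes at bud from −0.51 to between −0.34 and 0.59. Depth is unknown, and 2 libraries a group limit the precision.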
